A study of Homo sapiens with 5 samples.

Results

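The I-BAR domain family of *MTSS1* was examined in RNA-seq counts of TF-1 cells, a human AML cell line with CD34+ erythroid and myeloid progenitor features. The family was taken as 5 genes by name, *MTSS1*, *MTSS2*, *BAIAP2*, *BAIAP2L1*, and *BAIAP2L2*, and all 5 had a row among the 27328 Ensembl genes of the table. The libraries came from 2 control pools, sgCtrl pools 1 and 2, and 3 *MTSS1* knockout pools, sgMTSS1_1, sgMTSS1_2, and sgMTSS1_3. All pools were lentivirally transduced with Cas9 and an sgRNA, which in the controls targets *Renilla luciferase*, a gene absent from human cells. Each pool joined 4 single-cell clones, and the knockout clones had been chosen by immunoblot for loss of the protein. Each knockout pool carries a different sgRNA, so the 3 knockout replicates are 3 guides with 1 pool each, and a guide cannot be told apart from its pool. Another control pool and the pool of another sgRNA were set aside by the study after an outlier test and were not analysed here, so the spread given below is that of the pools that were retained.

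I-BAR (inverse BAR) domains are helical dimers that bind negatively charged lipids. In most members a convex face bends the plasma membrane outward, which links those proteins to filopodia and other protrusions. The C-terminal parts of the proteins differ. MTSS1 and MTSS2 carry a WH2 motif that binds actin monomers, whereas BAIAP2 (IRSp53), BAIAP2L1 (IRTKS), and BAIAP2L2 (pinkbar) carry an SH3 domain. In BAIAP2 this domain recruits actin regulators such as WAVE2, Mena, and EPS8. MTSS1 was first described as a gene missing in metastasis. The question put to these libraries was whether the paralogs were at another level in cells that lack MTSS1, and how *MTSS1* mRNA itself stood under each sgRNA.

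The SH3-containing members are the smaller proteins. The MANE transcripts of GENCODE release 44 encode 755 residues for MTSS1 and 747 for MTSS2, against 534 for BAIAP2, 511 for BAIAP2L1, and 529 for BAIAP2L2. On GRCh38, *MTSS2* (ENSG00000132613) lies on chromosome 16 from 70661204 to 70686053 on the minus strand. *BAIAP2* (ENSG00000175866) lies on chromosome 17 from 81035122 to 81117434 on the plus strand. *BAIAP2L1* (ENSG00000006453) lies on chromosome 7 from 98291650 to 98401090, and *BAIAP2L2* (ENSG00000128298) on chromosome 22 from 38084652 to 38111015, both on the minus strand.

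The promoters of 3 paralogs, those with an entry in the RefSeq promoter set used, are shown to set their sequence beside their levels. *MTSS2* and *BAIAP2* were expressed, and *BAIAP2L1* was near the detection limit. Each line gives the 250 bases upstream of the RefSeq start (GRCh38.p14), 5′ to 3′ in the direction of transcription, with CpG dinucleotides in capitals. The windows are chr16:70686054-70686303 (minus strand) for *MTSS2*, chr17:81034901-81035150 (plus strand) for the most upstream of the 4 *BAIAP2* starts, and chr7:98401091-98401340 (minus strand) for *BAIAP2L1*.
MTSS2: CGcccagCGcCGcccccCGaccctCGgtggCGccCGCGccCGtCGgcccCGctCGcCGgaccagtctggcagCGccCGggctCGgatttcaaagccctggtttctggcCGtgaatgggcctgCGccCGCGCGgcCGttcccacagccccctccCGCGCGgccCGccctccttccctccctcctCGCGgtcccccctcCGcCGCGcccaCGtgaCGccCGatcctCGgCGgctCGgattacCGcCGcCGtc
BAIAP2: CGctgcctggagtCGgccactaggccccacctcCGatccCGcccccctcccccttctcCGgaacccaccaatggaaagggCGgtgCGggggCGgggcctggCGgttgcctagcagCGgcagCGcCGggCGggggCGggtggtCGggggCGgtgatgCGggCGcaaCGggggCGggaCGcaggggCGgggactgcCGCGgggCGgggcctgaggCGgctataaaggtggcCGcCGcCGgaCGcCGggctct
BAIAP2L1: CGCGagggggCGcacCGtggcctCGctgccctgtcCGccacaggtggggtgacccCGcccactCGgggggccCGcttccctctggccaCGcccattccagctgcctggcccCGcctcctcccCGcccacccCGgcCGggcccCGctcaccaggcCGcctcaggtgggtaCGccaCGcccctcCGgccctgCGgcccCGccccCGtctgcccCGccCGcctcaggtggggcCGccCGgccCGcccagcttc

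All 3 windows are CpG-rich. *MTSS2* holds 40 CpGs, more than 97.8% of 34943 RefSeq windows of this length, whose median is 11. *BAIAP2* holds 31 and *BAIAP2L1* 27, more than 89.2% and 82.3% of windows. The E-box CACGTG, which reads the same on both strands, occurs 1 time in the *MTSS2* window and not in the other windows printed, and 6.32% of all windows contain it. Of the 3 downstream *BAIAP2* starts, which hold 7, 9, and 17 CpGs, the one with 9 also has 1 CACGTG. The cyclic AMP response element TGACGTCA, present in 1.63% of windows, and the CArG box, present in 1.16%, occur in none of the 3 printed.

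The libraries were QuantSeq 3′ libraries, primed from poly(A), so a transcript gives reads near its 3′ end whatever its length. Levels in CPM (a library's counts scaled to a common total, with TMM factors) can therefore be set side by side between genes without division by length. Totals were 2849979 to 3408827 counts in the control and 5442639 to 8854899 in the knockout libraries, so that 3 counts, taken here as the detection floor, amounted to 0.894 to 0.938 CPM in the control and 0.389 to 0.542 CPM in the knockout libraries. Ribosomal protein genes took 7.55% to 9.30% of control and 11.9% to 17.7% of knockout counts, and mitochondrially encoded genes 8.63% to 13.9% and 6.71% to 7.44%. All 13 TF-1 markers were detected in every library, at 2.89 to 434 CPM. None was called different between the groups by the test given next, which called 5.18% of all tested genes. Even so, *CD34*, *KIT*, *CSF2RB*, and *KLF1* lay above both controls in every knockout pool, and *GATA1* and *MYB* below both. Of all tested genes, 22.2% and 19.2% showed such separations. Epithelial and fibroblast markers summed to at most 1.04 CPM and T-cell markers to at most 4.70 CPM in any library.

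Differences between knockout and control were tested with edgeR's quasi-likelihood test on all 14391 genes with sufficient counts, with Benjamini-Hochberg adjustment over these genes. A gene was called at an adjusted p under 0.05 together with a log2-fold change above 1 or below -1. By this rule 5.18% of tested genes were called, 4.17% as higher and 1.01% as lower in the knockout. All 3 knockout pools lay above both control pools for 22.2% of tested genes and below both for 19.2%. Of the 5 family members, 4 had enough counts to be tested. Of these, *MTSS2* was called lower. No member was called higher. At an unadjusted p under 0.05, 2 members were lower and 0 higher, beside 9.23% and 14.1% of all tested genes. The standard error (SE) is the log2-fold change divided by the root of its F statistic, and intervals below are the log2-fold change ± 2 SE.

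*MTSS1*, the gene that was edited, was the most abundant member in every library. It lies on chromosome 8 from 124550784 to 124728473 on the minus strand (ENSG00000170873). Its level was 204 CPM (654 counts) in control pool 1 and 87.9 CPM (295 counts) in control pool 2. It was 104 CPM (799 counts) in the sgMTSS1_1 pool, 139 CPM (769 counts) in the sgMTSS1_2 pool, and 49.9 CPM (287 counts) in the sgMTSS1_3 pool. The groups overlapped, since the sgMTSS1_1 and sgMTSS1_2 pools lay between the controls and the sgMTSS1_3 pool alone lay below them. Control pools averaged 146 ± 82.4 CPM (SD, n = 2) and knockout pools 97.5 ± 44.8 CPM (SD, n = 3). The log2-fold change was -0.58 (SE 0.47, adjusted p = 0.494), with an interval from -1.53 to 0.36, which spans a fall and a small rise. Control pool 1 decides the sign. Without it the log2-fold change was 0.16 (adjusted p = 0.864).

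**Figure D1:**
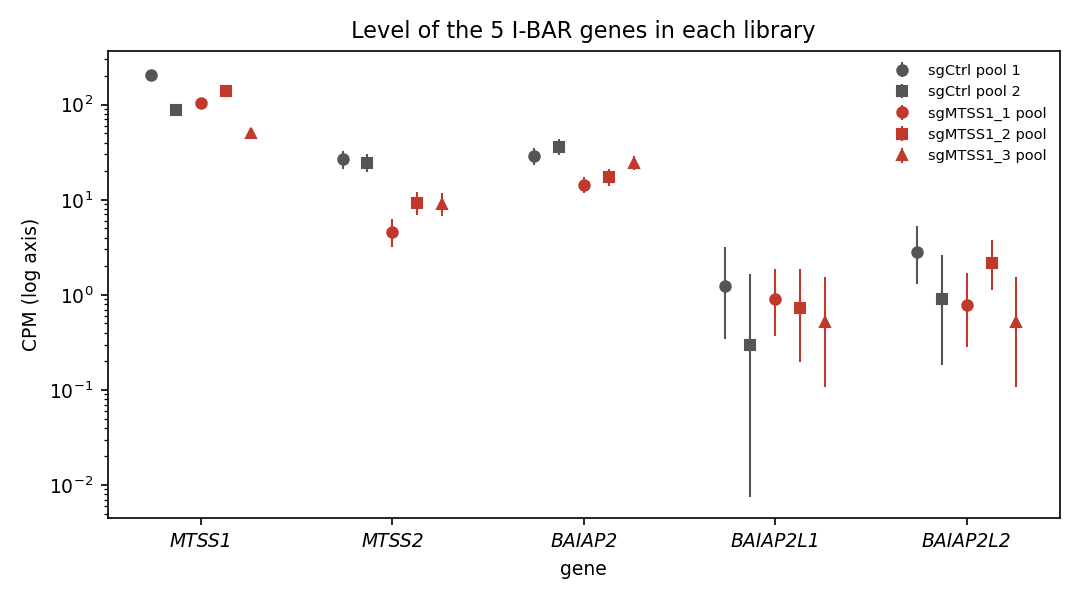
CPM of each I-BAR gene (log axis) in each of the 5 libraries, with control pools in grey and knockout pools in red. Bars are exact 95% Poisson intervals of the count and cover counting error only. The *MTSS1* pools interleave, all 3 knockout pools lie below both control pools for *MTSS2* and *BAIAP2*, and the intervals of *BAIAP2L1* and *BAIAP2L2* overlap throughout.

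The reads come from the far end of the gene, away from the sgRNA sites, so they do not show whether a transcript was edited. The level of *MTSS1* mRNA is therefore no check of the knockout on its own. Whether edited transcripts were lost was not tested. Each sgRNA matched 1 NGG site on chromosome 8. The sgMTSS1_2 site (124727918 to 124727937) lies within exon 1 of the 14 exons of the MANE transcript. The sgMTSS1_1 site (124727872 to 124727891) spans the end of exon 1, with 8 of its bases in the exon and 12 in intron 1. The sgMTSS1_3 site (124589614 to 124589633) spans the end of exon 5, with 14 bases in the exon and 6 in the intron. Both sites in exon 1 are 177 kb from the 3′ end of the gene, and the site at exon 5 is 38.8 kb from it. The annotation lists 18 *MTSS1* transcripts, of which 8 end in the last MANE exon, and 5 of these 8 have no exon at any of the 3 sites. Reads from the shared 3′ end do not tell these transcripts apart.

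**Figure D2:**
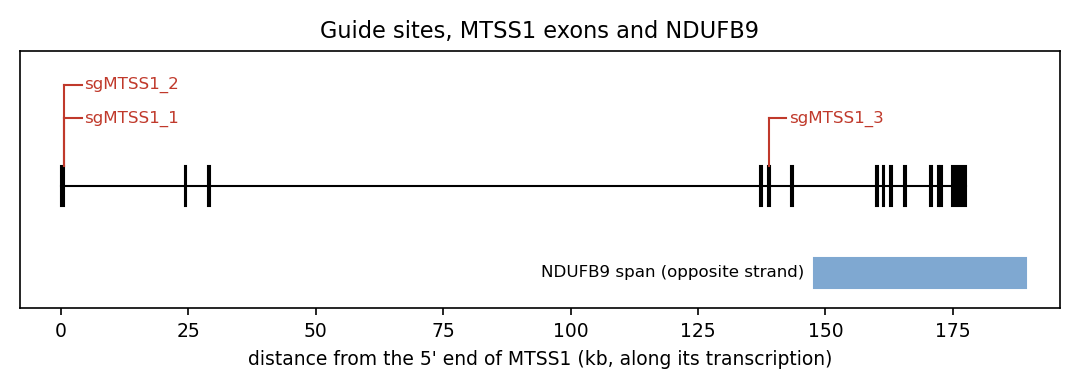
Map of *MTSS1* along its direction of transcription, in kb from its 5′ end, with the 14 MANE exons as black boxes, the 3 sgRNA sites in red, and the span of *NDUFB9* on the opposite strand in blue. The sgMTSS1_1 and sgMTSS1_2 sites lie at exon 1, and sgMTSS1_3 lies at exon 5. The *NDUFB9* span, introns included, covers the 3′ part where the reads are counted.

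By guide, *MTSS1* stood at 70.9% of the control mean in the sgMTSS1_1 pool, at 94.96% in the sgMTSS1_2 pool, and at 34.2% in the sgMTSS1_3 pool. Against control pool 1 alone the same pools stood at 50.7%, 67.9%, and 24.4%, and against control pool 2 alone at 118%, 158%, and 56.8%. Each control only rescales the same levels, so the order of the guides could not differ between controls. The side on which sgMTSS1_1 and sgMTSS1_2 fell depended on the control. In a quasi-likelihood fit with a coefficient for each guide, in which the spread comes from the control pair and lone pools are assumed to vary alike, log2-fold changes were -0.50 (SE 0.69, adjusted p = 0.843), -0.07 (SE 0.67, adjusted p = 1.0), and -1.55 (SE 0.73, adjusted p = 0.456). None was called, whereas 4.02%, 0.98%, and 1.85% of tested genes were called for sgMTSS1_1, sgMTSS1_2, and sgMTSS1_3. The difference between the sgMTSS1_3 pool and the other guides was larger than counting error, as its 95% Poisson interval of 44.3 to 56.1 CPM does not reach that of sgMTSS1_1 (96.6 to 111 CPM), but there was no replicate pool per guide.

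*NDUFB9*, which encodes a subunit of mitochondrial complex I, lies on the opposite strand. Its annotated span overlaps 29865 bases at the 3′ end of *MTSS1*, introns included, and the overlap of exons was not measured here. Per the paper, a transcript variant of *NDUFB9* overlaps *MTSS1* with its 3′ end. *NDUFB9* was at 326 and 211 CPM in the control pools and at 803, 574, and 622 CPM in the knockout pools. It thus was higher in every knockout pool, as were 22.2% of all tested genes. Its log2-fold change of 1.31 (SE 0.35, adjusted p = 0.0631) was not called. How the counting used strand is not given in the sources used here, and without strand the reads of *MTSS1* and *NDUFB9* from shared bases cannot be told apart. The neighbours without overlap, *TATDN1* (a putative deoxyribonuclease) on the 3′ side and *ZNF572* (a zinc finger gene) on the 5′ side, had log2-fold changes of 1.41 (SE 0.37, adjusted p = 0.0572) and 0.86 (SE 0.49, adjusted p = 0.324), and neither was called.

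*MTSS2*, the closest relative of *MTSS1* and like it a WH2-containing protein, was lower in the knockout. It was at 26.6 CPM (85 counts) in control pool 1 and 24.4 CPM (82 counts) in control pool 2. It was at 4.54 CPM (35 counts) with sgMTSS1_1, 9.21 CPM (51 counts) with sgMTSS1_2, and 9.05 CPM (52 counts) with sgMTSS1_3. The controls lay close together and every knockout pool lay below both, as for 19.2% of all tested genes. Control pools averaged 25.5 ± 1.51 CPM (SD, n = 2) and knockout pools 7.598 ± 2.65 CPM (SD, n = 3). The log2-fold change was -1.75 (SE 0.39, adjusted p = 0.0349), with an interval from -2.53 to -0.98, or 3.37-fold lower. The fold change kept its direction under all 13 alternatives, from -1.96 to -1.46, but the call was lost when any knockout pool was left out, with adjusted p-values of 0.0948 without sgMTSS1_1, 0.0774 without sgMTSS1_2, and 0.0926 without sgMTSS1_3. The shares of ribosomal protein and mitochondrial counts given above also differed between the groups, and their part in this difference was not tested.

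Taken by guide, *MTSS2* stood at 17.8%, 36.1%, and 35.5% of the control mean for sgMTSS1_1, sgMTSS1_2, and sgMTSS1_3. The log2-fold changes were -2.48 (SE 0.86, adjusted p = 0.0778), -1.47 (SE 0.81, adjusted p = 0.843), and -1.49 (SE 0.81, adjusted p = 0.630) in the fit per guide, and none was called. The guide with the lowest *MTSS1*, sgMTSS1_3, was not the one with the lowest *MTSS2*. The nearest NGG sites in *MTSS2* had 7 mismatches to sgMTSS1_1, 4 to sgMTSS1_2, and 8 to sgMTSS1_3 over 20 bases. In *BAIAP2*, *BAIAP2L1*, and *BAIAP2L2* the nearest sites had 6 to 8 mismatches. Editing at these sites was not tested.

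*BAIAP2*, an adaptor that recruits actin regulators through its SH3 domain, was the most abundant paralog in every library, although close to *MTSS2* in control pool 1. It was at 28.8 CPM (92 counts) and 36.1 CPM (121 counts) in the control pools. It was at 14.4 CPM (111 counts) with sgMTSS1_1, 17.3 CPM (96 counts) with sgMTSS1_2, and 24.4 CPM (140 counts) with sgMTSS1_3. Every knockout pool lay below both controls, a separation that 19.2% of tested genes also showed. Control pools averaged 32.4 ± 5.16 CPM (SD, n = 2) and knockout pools 18.7 ± 5.12 CPM (SD, n = 3). The log2-fold change was -0.80 (SE 0.34, adjusted p = 0.194), with an interval from -1.47 to -0.12 that does not allow for the adjustment over genes. *BAIAP2* was not called in the main test or under any of the 13 alternatives, in which adjusted p-values ranged from 0.142 to 0.420.

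*BAIAP2-DT*, a non-coding transcript that starts 432 bases from the most upstream *BAIAP2* start and runs the other way, did not share this order. It was at 8.75 and 12.8 CPM in the control pools and at 8.95, 17.9, and 10.4 CPM in the knockout pools, with overlapping groups and a log2-fold change of 0.20 (SE 0.42, adjusted p = 0.823). *AATK*, a kinase gene whose annotated span overlaps 6948 bases of *BAIAP2* on the opposite strand, had 0 to 9 counts per library and was not tested.

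*BAIAP2L2* and *BAIAP2L1*, known mainly from epithelia, were near the floor. For *BAIAP2L2*, 9 and 3 counts were found in the control (2.81 and 0.894 CPM) and 6, 12, and 3 counts in the knockout (0.778, 2.17, and 0.522 CPM). These values overlapped and gave a log2-fold change of -0.69 (SE 0.81, adjusted p = 0.656) and an interval from -2.31 to 0.93. For *BAIAP2L1*, 4 and 1 counts were found in the control (1.25 and 0.298 CPM) and 7, 4, and 3 in the knockout (0.908, 0.722, and 0.522 CPM), too few to pass the filter. Fitted without that filter, it had a log2-fold change of 0.07 (SE 0.998, adjusted p = 0.980). A difference in either gene was not detectable at this depth. *BAIAP2L1* also overlaps other genes with more counts, *BRI3* on the opposite strand at 20.6 to 54.5 CPM and the pseudogene *RPS3AP26* on its own strand at 7.15 to 41.8 CPM, so that its few counts cannot be assigned with certainty. Both were higher in every knockout pool, as were 22.2% of all tested genes. Neither was called, with log2-fold changes of 1.11 (SE 0.32, adjusted p = 0.0790) and 1.60 (SE 0.46, adjusted p = 0.0765).

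The order of levels was the same in all libraries for the top of the family, *MTSS1* above *BAIAP2* above *MTSS2*, with *BAIAP2L2* and *BAIAP2L1* far below. *BAIAP2* and *MTSS2* were neighbours in the control pools, with ratios of *BAIAP2* to *MTSS2* of 1.08 and 1.48 and Poisson intervals that overlapped in both pools. In the knockout pools the ratios were 3.17, 1.88, and 2.69, each above both controls. The ratio of *MTSS1* to *MTSS2* was 7.69 and 3.60 in the control, against 22.8, 15.1, and 5.52 in the knockout, and these overlapped. The Poisson intervals of *BAIAP2L1* and *BAIAP2L2* overlapped in every library.

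Summed over the 4 paralogs, the family apart from *MTSS1* was lower in every knockout pool. The sums were 59.4 and 61.7 CPM in the control pools and 20.6, 29.4, and 34.4 CPM with sgMTSS1_1, sgMTSS1_2, and sgMTSS1_3, or 60.5 ± 1.61 CPM (SD, n = 2) against 28.2 ± 6.998 CPM (SD, n = 3). These sums rest on *MTSS2* and *BAIAP2*, which were described above, and were given no test of their own. No measured paralog thus stood at a called higher level, and the sums give no rise of the paralogs' mRNA in any knockout pool.

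*MTSS1* supplied 77.5% of the family's counts in control pool 1 (95% exact binomial interval 74.5 to 80.3) and 58.8% in control pool 2 (54.3 to 63.1). It supplied 83.4% with sgMTSS1_1 (80.9 to 85.7), 82.5% with sgMTSS1_2 (79.9 to 84.9), and 59.2% with sgMTSS1_3 (54.7 to 63.6). The share in the sgMTSS1_3 pool was within the interval of control pool 2, and the shares with the other guides were above both controls. The total of all 5 genes was 264 and 150 CPM in the control and 124, 168, and 84.4 CPM in the knockout pools, so that the groups overlapped.

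**Figure D3:**
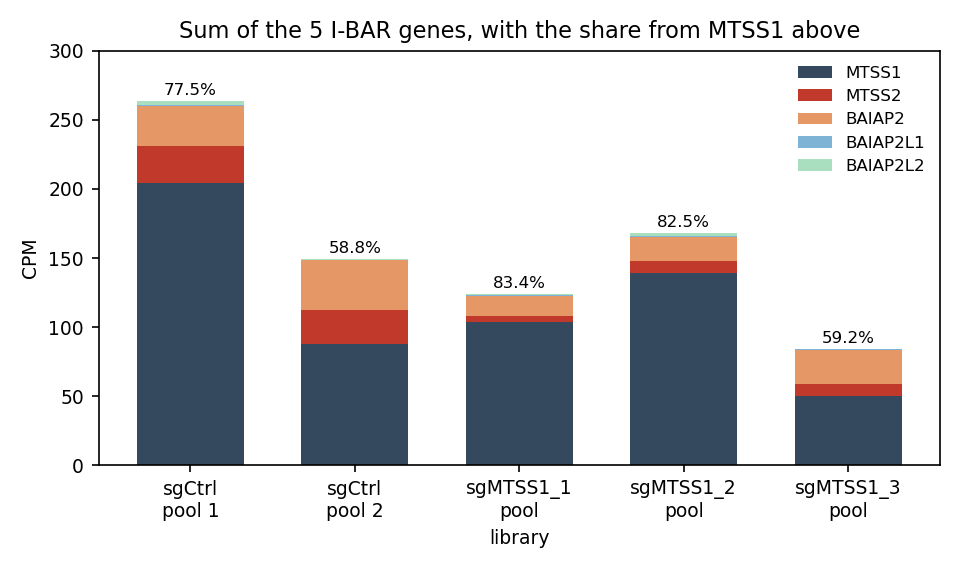
CPM of the 5 I-BAR genes stacked for each library, with the percentage of the family's counts from *MTSS1* above each bar. *MTSS1* makes up 58.8% to 83.4% of the family, and the stack of paralogs falls from about 60.5 CPM in the control pools to a mean of 28.2 CPM in the knockout pools.

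The fold changes of the 3 expressed members differed in how far they depended on the way of testing. For *MTSS2*, DESeq2 gave -1.73 (adjusted p = 0.00658) and limma-voom -1.84 (adjusted p = 0.0360), and libraries thinned to the smallest total gave -1.46 (adjusted p = 0.0489). For *MTSS1*, values ran from -1.04 without control pool 2 to 0.16 without control pool 1, with no adjusted p-value below 0.204. For *BAIAP2*, values ran from -1.03 to -0.60, all on the same side of 0.

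**Figure D4:**
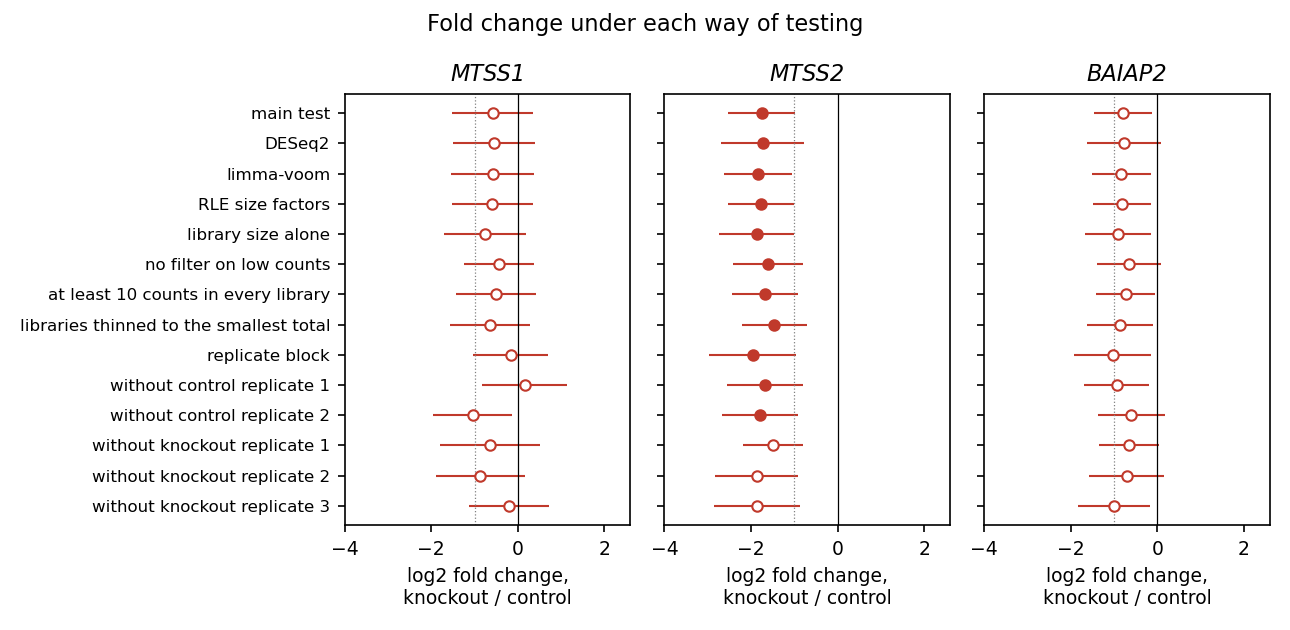
Log2-fold changes of *MTSS1*, *MTSS2*, and *BAIAP2* between knockout and control in the main test and 13 alternatives, with bars of 2 SE. Filled points were called, the solid line marks 0, and the dotted line marks -1. *MTSS2* is called in the main test and 10 alternatives, and *MTSS1* and *BAIAP2* in none.

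I-BAR proteins act with regulators of actin, and a list of 59 such partners was counted next. Of these, 55 were in the table and 47 were tested. In the knockout 5 were called higher, which is 10.6% of the 47 beside 4.17% of all tested genes, and 0 were called lower, also by DESeq2. At an unadjusted p under 0.05, 12 were higher (25.5%, beside 14.1% of all tested genes) and 6 lower (12.8%, beside 9.23%). The median log2-fold change of the 47 was 0.04, beside -0.03 for all tested genes, so the list as a whole sat near the median of all genes. All 3 knockout pools lay above both controls for 15 of the 47 (31.9%, beside 22.2% of all tested genes) and below both for 9 (19.1%, beside 19.2%).

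Of the called partners, *ACTG1*, *ARPC3*, and *CTTN* encode actin or proteins of branched actin networks. *ACTG1*, cytoplasmic gamma-actin, was at 303 and 125 CPM in the control pools and at 1639, 1479, and 1963 CPM in the knockout pools (log2-fold change 2.99, SE 0.48, adjusted p = 0.0131). *ARPC3*, a subunit of the Arp2/3 complex that nucleates branched filaments, was at 25.6 and 8.34 CPM against 429, 182, and 229 CPM (4.04, SE 0.60, adjusted p = 0.0109). *CTTN*, cortactin, which binds the Arp2/3 complex at branch points and also MTSS1, was at 9.38 and 11.9 CPM against 34.5, 50.4, and 47.7 CPM (2.05, SE 0.35, adjusted p = 0.0158). The groups were far apart for all of these. Reads of *ACTG1* and *ARPC3* can be shared with pseudogenes of any type, of which the annotation names 21 and 5 after them. Reads without a unique place were removed by the authors, so the levels of *ACTG1* and *ARPC3* are uncertain.

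Scaffold proteins bound by BAIAP2 at synapses and epithelial junctions made up the rest. *DLG4*, which encodes PSD-95, was at 7.19 and 8.05 CPM in the control pools and at 31.4, 66.6, and 60.0 CPM in the knockout pools (log2-fold change 2.78, SE 0.43, adjusted p = 0.0119). *LIN7C*, a PDZ protein, was at 20.0 and 19.4 CPM against 47.5, 48.7, and 46.3 CPM (1.27, SE 0.30, adjusted p = 0.0420). *DLG4* was called under all 13 alternatives, as was *ARPC3*, whereas *LIN7C* was called under 7 of 13, *CTTN* under 11, and *ACTG1* under 12. *DLG4* overlaps *ACADVL* on the opposite strand, and their reads cannot be told apart without strand.

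Within the same groups, other partners were not called. *ACTB*, cytoplasmic beta-actin, named here after its values were seen, was at 719 and 2188 CPM in the control pools and at 394, 800, and 657 CPM in the knockout pools. These groups overlapped, and the log2-fold change of -1.24 (SE 0.49, adjusted p = 0.169) was opposite in sign to that of *ACTG1*. The annotation names 12 pseudogenes after *ACTB*, so its level is uncertain in the same way. Of the 8 tested Arp2/3 subunits, 7 were not called. All knockout pools lay below both controls for 2 of the 8 (25%, beside 19.2% of all tested genes) and above both for 2 (25%, beside 22.2%). *ACTR2*, the most abundant and 1 of those below, averaged 856 ± 439.8 CPM (SD, n = 2) in the controls, against 411 ± 55.2 CPM (SD, n = 3) in the knockout pools (log2-fold change -1.06, SE 0.38, adjusted p = 0.131). *HCLS1*, the haematopoietic relative of cortactin, averaged 115 ± 12.96 CPM and 113 ± 11.8 CPM (log2-fold change -0.02, SE 0.28, adjusted p = 0.981). None of the 11 tested WAVE and WASP genes was called, among them *NCKAP1L* with a log2-fold change of 0.11 (SE 0.50, adjusted p = 0.925). The kinase gene *SRC*, which phosphorylates MTSS1, was at 19.3 ± 5.17 and 19.1 ± 10.4 CPM, and *SUFU*, a Hedgehog regulator that binds MTSS1, at 26.1 ± 2.83 and 25.6 ± 11.2 CPM.

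Genes with other kinds of BAR domain were counted for comparison, since they curve membranes by related folds. Of 59 listed, 48 were tested, 1 was called higher (2.08%, beside 4.17% of all tested genes), and 0 were called lower, also by DESeq2. At an unadjusted p under 0.05, 4 were higher (8.33%, beside 14.1%) and 2 lower (4.17%, beside 9.23%). *ARHGAP45*, a haematopoietic F-BAR protein that is known for the minor histocompatibility antigen HA-1, was at 1.88 and 0.894 CPM (6 and 3 counts) in the control pools and at 40.9, 47.5, and 52.2 CPM in the knockout pools. The knockout values were close together and far above both controls (log2-fold change 5.06, SE 0.46, adjusted p = 0.00457). The control counts were at or near the floor of 3, so the gene passed the filter through the knockout pools alone, the size of its fold change is uncertain, and it was not tested where at least 10 counts were required in every library. *ARHGAP45* overlaps *POLR2E* on the opposite strand. The median log2-fold change of the 48 was -0.16, and 14 of them lay below both controls in every knockout pool (29.2%, beside 19.2% of all tested genes) and 6 above (12.5%, beside 22.2%). *GAS7* and *ARHGAP10* had 0 counts in both control pools and at most 3 in any knockout pool, which is no more than the floor.

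**Figure D5:**
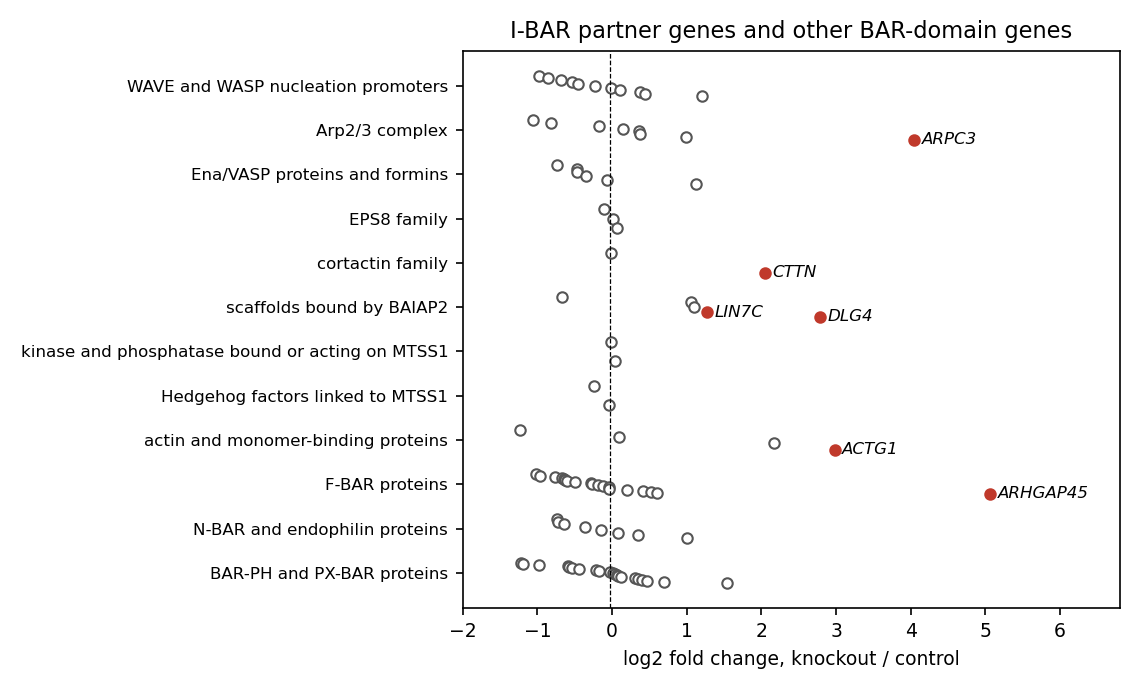
Log2-fold changes of the tested I-BAR partner genes and other BAR-domain genes in the roles named on the axis. Each point is a gene, filled points were called, and the dashed line marks the median of all tested genes at -0.03. The 6 called genes all lie above 1, and the other genes scatter on both sides of the line.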

How the data were processed

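The 5 libraries are described by whole-number counts of reads per Ensembl gene, which the authors deposited with no normalization. Per the paper's methods and the submitters' processing notes, QuantSeq 3′ libraries were read as single ends, trimmed with BBduk, aligned to GRCh38 with HISAT2 2.1.0, and freed of reads without a unique place with SAMtools 1.10. The counting program, annotation release, and use of strand are not given in the sources used here. Reads carry no molecular identifiers, so intervals and floors cover counting error only.

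All 5 count columns were used, with the 3 knockout and 2 control pools grouped by their labels. Counts were tested in R 4.3.3 with edgeR 4.0.16 (glmQLFit and glmQLFTest, TMM, filterByExpr with a minimum count of 10, condition as the only term) on the whole table, in which 14391 of 27328 genes passed the filter. The biological coefficient of variation was 32.2%. The labels do not say that the pools were handled separately, so p-values measure the spread between these pools. DESeq2 1.42.0, limma-voom (limma 3.58.1), other size factors and filters, thinned libraries, a block for the pool number, and each pool left out in turn were the alternatives. The test was also run on counts simulated with its own estimated spread and independent pools, so this run cannot check either assumption. The members and the gene lists were chosen with earlier results of these data known. Of the 59 I-BAR partners and 59 other BAR-domain genes listed, 55 each were in the table. The partner counts include 1 role whose genes are not reported here individually, and 1 marker set is not reported here. Named genes were the members, called list genes, the most abundant gene of a role, genes that overlap or adjoin a member, and the 3 genes whose centred log2 CPM came closest to a member. Annotation was GENCODE release 44. Promoter windows came from RefSeq on GRCh38.p14 and were taken for the paralogs only, of which 3 had entries. The window of *MTSS1* is not reported here.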

Additional observations from a re-analysis of the deposited data

How the results depend on the processing

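The call of *MTSS2* rested on all 3 knockout pools. Without each pool in turn, its log2-fold change ranged from -1.87 to -1.49 over the 5 fits, with adjusted p-values above 0.05 when a knockout pool was missing. Over the same fits *MTSS1* ranged from -1.04 to 0.16. *BAIAP2L2* passed the filter on low counts only when a control pool was the one left out, and ranged from -1.27 to 0.35. Both were positive without control pool 1, and neither was called under any alternative that could be fitted. With control pool 1 or 2 left out the control is 1 library, assumed to vary like the knockout. In the fit per guide, limma-voom turned *MTSS1* with sgMTSS1_2 to 0.049.

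Called genes over the whole table numbered 745 in the main test, 1272 with DESeq2, 1374 with no filter on low counts, and 111 to 1349 with 1 pool left out, the lowest without sgMTSS1_1 and the highest without control pool 1. Without sgMTSS1_2 and sgMTSS1_3 they numbered 347 and 191. Called partners numbered 5, 9 with DESeq2, 9 with no filter, and 3 to 12 with 1 pool left out. Called other BAR-domain genes numbered 1, and 2 with DESeq2, with library size alone, with no filter, and with the replicate block. With library size alone as the scale, the median of all tested genes was -0.17, beside -0.03 in the main test, *MTSS2* was at -1.87, and the sum of the paralogs in the control pools was 63.7 CPM. The causes were not tested.

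The labels use pool numbers 1 and 2 for control and knockout alike, without saying that equal numbers share a batch. Deviations from the group means correlated at 0.196 and 0.108 for pools with the same number, and at -0.108 and -0.196 for different numbers. The deviations of the 2 control pools mirror each other, so these values are not independent and do not settle whether numbers share a batch. With the replicate block, 1094 genes were called, and log2-fold changes were -1.96 (adjusted p = 0.00842) for *MTSS2*, -0.16 for *MTSS1*, and -1.03 for *BAIAP2*. Depth limits *BAIAP2L1* and *BAIAP2L2*, at 12 counts or fewer in every library.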

Other observations

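The genes whose levels came closest to those of each member over the 5 libraries were found by the root-mean-square (RMS) difference of centred log2 CPM, as a description over 5 points that share libraries and groups. Each was picked for this match, so its order over the pools and its fold change follow from the choice. For *MTSS1* the nearest was *HLA-DRB1*, a beta chain of MHC class II, with an RMS difference of 0.0254. *HLA-DRB1* was at 500 and 208 CPM in the control pools and at 255, 344, and 120 CPM in the knockout pools. As for *MTSS1*, control pool 1 was highest and the sgMTSS1_3 pool lowest. Next came *LINC02970*, a non-coding RNA, and ENSG00000228933, at 0.101 and 0.115.

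For *MTSS2* the nearest was *NUCB1*, which encodes the calcium-binding Golgi protein nucleobindin 1, with an RMS difference of 0.0743. *NUCB1* was at 184 and 187 CPM in the control pools and at 31.3, 66.1, and 66.3 CPM in the knockout pools. The sgMTSS1_1 pool was lowest, as for *MTSS2*, and the log2-fold change was -1.77 (SE 0.36). *NCDN*, which encodes the neuronal protein neurochondrin, was at 33.1 CPM in both control pools. Its level was 5.84, 12.8, and 13.6 CPM in the knockout pools (log2-fold change -1.63, SE 0.40). The antisense gene *SGSM3-AS1* was the third, at 0.0933.

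For *BAIAP2* the nearest were ENSG00000273449, *CENPN-AS1*, and *RFNG*, a glycosyltransferase of the Notch pathway, at RMS differences of 0.0740 to 0.0976. *RFNG* was at 25.6 and 31.9 CPM in the control pools and at 10.8, 15.0, and 19.1 CPM in the knockout pools (-0.95, SE 0.35, adjusted p = 0.143), which was not called. For *BAIAP2L2* the nearest were *TMPRSS4*, a membrane serine protease, and a pair of genes without a symbol, at 0.145 to 0.169, where the member's own level rests on 3 to 12 counts.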
